A study of Homo sapiens with 96 samples.

Results

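Integrins and laminins, the cell surface receptors for the extracellular matrix and 1 class of the matrix proteins they hold on to, were followed through 1 circadian day in the human bone tumour line U2-OS, derived from an osteosarcoma. Members were chosen by gene symbol alone: every row named as an integrin alpha or beta chain (ITGA or ITGB with a number, or ITGAD, ITGAE, ITGAL, ITGAM, ITGAV, ITGAX or ITGA2B) or as a laminin chain (LAMA, LAMB or LAMC with a number). The rule found 37 of the 19438 genes in the tables, made up of 17 integrin alpha chains, 8 integrin beta chains, 5 laminin alpha chains, 4 laminin beta chains and 3 laminin gamma chains. The rule itself uses no measured value.

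Total RNA and ribosome footprints, the stretches of mRNA that a translating ribosome shields from nuclease, were sequenced in cells that carry a luciferase reporter under the Per2 promoter. All cells were reset with 0.1 µM dexamethasone, a synthetic glucocorticoid, and collected after cycloheximide at 100 µg/mL from 24.5 h onwards, every 2 h from CT00 to CT22 (circadian time in hours). The wild-type cells were not transfected and were plated more densely. The Bmal1 knockdown cells were transfected with 5 pooled siRNAs, 120 pmol in all, which bring about cleavage of the mRNA of the core clock gene Bmal1, named ARNTL in the tables. Each of the 48 groups of treatment, assay and time held 2 replicates, giving 96 libraries and 24 per treatment and assay. The labels give no control siRNA, so that transfection and plating density cannot be told apart from the loss of Bmal1 in any difference between the treatments. Nothing in the labels says that the replicates were separate cultures, so p-values measure the spread between these libraries, which may be technical.

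Integrins are pairs of 1 alpha and 1 beta chain that span the membrane, bind matrix proteins outside the cell and couple, through talin and other adaptors, to actin inside it. ITGB1 is the beta chain shared by most alpha chains, including those that bind collagen, laminin and fibronectin, whereas ITGAV also pairs with ITGB3, ITGB5, ITGB6 and ITGB8 to bind proteins with an RGD motif. Laminins are secreted trimers of an alpha, a beta and a gamma chain that polymerise into the basement membrane. Cells of the osteoblast lineage use mainly the collagen, fibronectin and RGD-binding receptors to hold on to bone matrix.

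Whole reads recovered from the deposited normalised values came to between 13589361 and 20066462 in 46 total RNA libraries, to 2564263 and 2657049 in the knockdown libraries of replicate 2 at CT18 and CT14, and to between 2497246 and 5822458 in the 48 footprint libraries. The siRNA target ARNTL stood at 14.3 to 47.9 CPM (reads relative to the library's total) in wild-type total RNA and 3.36 to 6.49 in knockdown total RNA, without overlap. Among osteoblast markers, RUNX2, ALPL, COL1A1 and SPARC were at a mean of at least 1 CPM in total RNA of both treatments, whereas SP7, BGLAP and IBSP were at or near 0 and COL1A2 had a median of 0.0900 CPM in wild-type cells. Levels are CPM after TMM scaling within each assay. They are compared between libraries and never between genes, since no gene lengths were at hand.

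Of the 37 members, 30 had enough reads to be tested in total RNA and 26 in footprints. ITGA2B, ITGA9, ITGAD, ITGAL, ITGB7, LAMA3 and LAMB4 were too low in both assays. ITGA10, ITGAM, ITGB6 and LAMA4 were too low in footprints only. ITGAM, ITGAX, ITGB6 and LAMA4 passed in total RNA only through the knockdown libraries, as did ITGAX in footprints, whereas ITGA11 and ITGB2 passed in footprints only through the wild-type libraries. A member let in by the group where it is high is favoured to differ, so counts are also given over the genes that passed in each treatment on its own, which holds 26 members in total RNA and 23 in footprints.

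The comparison of knockdown with wild-type cells was made first in total RNA. Knockdown cells held more RNA for 20 of the 30 tested members and less for 6, by limma's moderated test at a Benjamini-Hochberg adjusted p under 0.05 over all genes tested. In such bulk samples more cells with a transcript and more transcript per cell cannot be told apart. The background was high, since 80.5% of all genes tested were called (41.2% higher and 39.3% lower). Among the 26 members that passed in each treatment 16 were higher and 6 lower, against 41.1% and 39.5% of such genes. The median log2 difference, knockdown minus wild-type, was 0.33 over the tested members, the 4 let in by the knockdown libraries included, and 0.01 over all genes tested. A narrower measure was the separation of the libraries. Every one of the 24 knockdown libraries lay above every wild-type library for 12 of 30 members, against 9.44% of all genes. Among them were ITGA2, ITGA3, ITGA4, ITGA5, ITGA6, ITGAM, ITGAX, LAMA1, LAMB1, LAMB3 and LAMC1. Without the members let in by the knockdown libraries, ITGAM and ITGAX among them, this was 10 of 26, against 9.54% of genes. For ITGB2 all knockdown libraries lay below all wild-type ones, against 9.39% of all genes. A called change of at least 2-fold upwards was seen in 9 of the 30 (4.52% of all genes) and downwards in 1 (2.62%), or in 7 of the 26 (3.93% of genes) and 1 (2.44%).

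**Figure D1:**
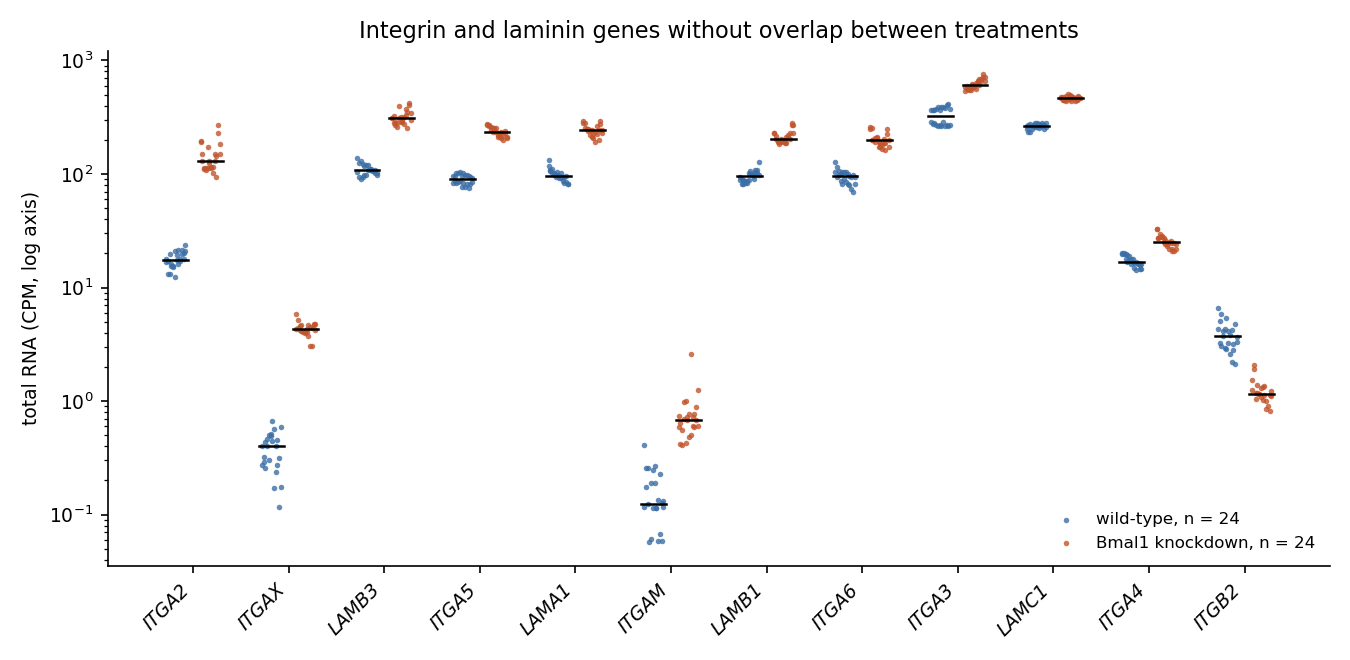
Level of 12 members without overlap between treatments in total RNA (CPM, log axis), 1 point per library with 24 wild-type (blue) and 24 knockdown (orange) libraries per gene, and the median as a black line. The 1 wild-type library at 0 for ITGAM and the 1 knockdown library at 0 for ITGB2 cannot be drawn on a log axis, and the gap between treatments is widest for ITGA2 and ITGAX.

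Promoter windows were at hand for 25 of the 37 members, as the 250 bases before a RefSeq transcription start in GRCh38.p14. Those of 3 members that rose without overlap are printed, chosen after their values were seen: ITGA2 for its difference in RNA, ITGA6 as the window with the E-box and LAMB3 as the window of a risen member with the AP-1 motif. The motifs searched were the E-box CACGTG, which the BMAL1 and CLOCK dimer is known to bind, the AP-1 motif TGANTCA, and the GC box GGGCGG. Both strands were searched, so that a GC box can read CCGCCC. Capitals mark every match. The ITGA2 window lies on the plus strand at chr5:52989102-52989351, the ITGA6 window on the plus strand at chr2:172427086-172427335, and the LAMB3 window on the minus strand at chr1:209651375-209651624.
ITGA2: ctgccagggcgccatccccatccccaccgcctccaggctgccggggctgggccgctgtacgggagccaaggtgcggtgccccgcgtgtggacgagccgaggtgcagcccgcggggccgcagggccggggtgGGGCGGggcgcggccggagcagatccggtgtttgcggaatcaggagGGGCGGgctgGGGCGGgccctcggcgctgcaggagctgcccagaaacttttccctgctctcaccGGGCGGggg
ITGA6: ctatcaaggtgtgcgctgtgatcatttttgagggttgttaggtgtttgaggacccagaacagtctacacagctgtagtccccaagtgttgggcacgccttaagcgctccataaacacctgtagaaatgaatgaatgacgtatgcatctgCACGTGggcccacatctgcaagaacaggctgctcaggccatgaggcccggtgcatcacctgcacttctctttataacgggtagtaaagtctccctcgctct
LAMB3: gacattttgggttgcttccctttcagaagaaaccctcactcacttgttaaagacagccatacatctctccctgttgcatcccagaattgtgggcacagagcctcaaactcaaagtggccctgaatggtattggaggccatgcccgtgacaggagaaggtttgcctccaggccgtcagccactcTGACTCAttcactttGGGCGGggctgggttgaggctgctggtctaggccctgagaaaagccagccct
The 25 members had 32 windows. The E-box was found in 1 of them, of ITGA6, and in 6.34% of the 35116 RefSeq windows of that length. The AP-1 motif was found in 2, of LAMB3 and LAMA3, and in 6.57% of all windows. ITGA6 and LAMB3 had further windows, not printed, that held neither the E-box nor the AP-1 motif. GC boxes stood in 16 of the 32 (50.0%), from 13 members, and in 42.6% of all windows, with 4 matches in the ITGA2 window. These matches are letters in a window and say nothing on binding in these cells.

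Among the collagen receptors, ITGA2, the alpha chain of the collagen receptor of platelets and epithelia, changed most. Its wild-type total RNA libraries ran from 12.4 to 23.7 CPM with a median of 17.6. Its knockdown libraries ran from 94.3 to 268 CPM with a median of 131. The groups stood far apart, and the mean was 8.10 times higher in knockdown cells (log2 difference 2.96 ± 0.06 SE, adjusted p = 1.14e-26). All 12 times shared the direction, with log2 differences between 2.49 and 3.68. The other collagen-binding alpha chains moved little or the other way. ITGA1 rose by 0.30 ± 0.05 on the log2 scale (adjusted p = 2.69e-06), with 6.55 to 9.33 CPM in wild-type and 7.10 to 11.7 CPM in knockdown libraries, which overlap. The ITGA1 gene spans PELO on the same strand, so its reads may not all be its own. ITGA10, low throughout at a median of 0.637 CPM in wild-type and 0.824 in knockdown cells, rose by 0.35 ± 0.11 (adjusted p = 0.00376), but without replicate 1 the difference was 0.07 and no longer called (adjusted p = 0.615). ITGA11, a collagen receptor of fibroblasts and osteogenic cells, fell by 0.76 ± 0.13 (adjusted p = 6.24e-06), from a wild-type median of 0.978 to 0.447 CPM, with overlap.

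The laminin-binding alpha chains ITGA3 and ITGA6 rose without overlap, and ITGA7 fell. ITGA3 ran from 263 to 412 CPM (median 327) in wild-type and from 543 to 757 CPM (median 608) in knockdown total RNA. Its wild-type libraries split by replicate, with all 12 of replicate 1 (263 to 289 CPM) below all 12 of replicate 2 (365 to 412 CPM), a split not seen in knockdown cells. The log2 difference was 0.94 ± 0.07 (adjusted p = 1.04e-12). This SE and p take the libraries as independent, which the split in wild-type cells goes against. In footprints the ITGA3 difference was 0.72 without replicate 1 and 1.14 without replicate 2. On series means the footprint difference of ITGA3 was still called (adjusted p = 0.0011). ITGA6, which joins ITGB4 in the hemidesmosomes of epithelia and ITGB1 elsewhere, ran from 69.6 to 128 CPM (median 95.4) and from 163 to 259 CPM (median 198). This was a log2 difference of 1.09 ± 0.05 (adjusted p = 2.42e-19). The ITGA6 window above holds the E-box letters, which the other window of ITGA6 does not. ITGA7, best known from muscle, fell by 0.28 ± 0.04 (adjusted p = 1.57e-07) from a median of 11.0 to 9.73 CPM, with overlap. ITGB4, the partner of ITGA6 in hemidesmosomes, fell by 0.63 ± 0.12 (adjusted p = 1.48e-05) from a median of 1.96 to 1.25 CPM, again with overlap. With the mean of each replicate series as 1 value, 2 against 2, ITGB4 was not called (adjusted p = 0.0589). BLOC1S1 overlaps ITGA7 and GALK1 overlaps ITGB4, and whether the counting used strand is not given.

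Among the fibronectin and RGD receptors the alpha chain ITGA5 rose and the ITGAV group barely moved. ITGA5, the classical fibronectin receptor, ran from 75.4 to 104 CPM (median 90.0) in wild-type and from 200.5 to 277 CPM (median 234) in knockdown cells, a log2 difference of 1.39 ± 0.04 (adjusted p = 9.41e-25). ITGA4, which binds fibronectin and VCAM1, rose from a median of 16.8 to 25.2 CPM (0.56 ± 0.03, adjusted p = 2.03e-18), also without overlap. CERKL overlaps ITGA4. ITGAV differed by 0.10 ± 0.03 (adjusted p = 0.000603), ITGB5 by 0.17 ± 0.04 (adjusted p = 0.000203) and the shared beta chain ITGB1 by 0.11 ± 0.02 (adjusted p = 2.40e-06). Their ranges overlap: ITGB1 stood at 1439 to 1894 CPM in wild-type and 1553 to 1831 CPM in knockdown libraries. None of these 3 calls stood on series means (adjusted p = 0.119 for ITGAV, 0.129 for ITGB5 and 0.118 for ITGB1), and without replicate 1 the ITGAV and ITGB5 calls went (adjusted p = 0.225 and 0.434). ITGB3, the beta chain of the vitronectin receptor of osteoclasts, was at a median of 5.07 CPM in wild-type and 5.87 in knockdown cells and did not pass the test (0.12 ± 0.12, adjusted p = 0.344). ITGB8, which activates TGF-beta with ITGAV, did not pass either (0.05 ± 0.05, adjusted p = 0.344). ITGB6, an epithelial chain let in by the knockdown libraries, was at medians of 0.237 and 0.395 CPM, a difference of 0.47 ± 0.12 that was not called without replicate 1 (adjusted p = 0.116).

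Of the integrins known from leukocytes, ITGAX and ITGAM were higher and ITGB2 lower in knockdown cells. ITGAX, the alpha chain of a complement receptor of myeloid cells, ran from 0.117 to 0.665 CPM (median 0.400; 148 reads over 24 libraries) in wild-type cells. In knockdown cells it ran from 3.04 to 5.89 CPM (median 4.28; 1608 reads). Its mean was 11.45 times higher, and the log2 difference was 2.89 ± 0.09 on the log2(CPM + 0.25) scale, which understates the change of low genes. It was let in by the knockdown libraries, so this is given as a description with no p. ITGAM, the alpha chain of the other main complement receptor, held 58 reads over the wild-type and 256 over the knockdown libraries, a difference of 1.30 ± 0.12, likewise a description. The gap was narrow, with 0.407 CPM as the highest wild-type and 0.413 as the lowest knockdown value. ITGB2, the beta chain with which both pair, moved the other way. It ran from 2.11 to 6.65 CPM (median 3.71) in wild-type and from 0 to 2.06 CPM (median 1.16) in knockdown cells, and fell by 1.55 ± 0.12 (adjusted p = 7.09e-13). ITGAE, the alpha chain of a receptor for E-cadherin, overlaps P2RX5 and had medians of 21.3 and 22.6 CPM with no called difference (0.000998 ± 0.04, adjusted p = 0.983). ITGAL and ITGAD held 6 and 3 reads in all wild-type total RNA and 2 and 6 in knockdown total RNA.

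Some markers of leukocytes moved with ITGAX and ITGAM, and their part in these results was not tested. The summed total RNA of 9 leukocyte genes ran from 5.77 to 21.4 CPM (median 9.74) in wild-type and from 30.5 to 74.0 CPM (median 44.8) in knockdown cells, mostly from CD68 (mean 2.09 against 12.8 CPM) and LCP1 (mean 7.33 against 32.0 CPM). The defining markers were at or near 0 in both: PTPRC, the pan-leukocyte CD45, had a mean of 0.298 CPM in wild-type and 0.227 in knockdown cells, and CD3E had no read in total RNA. ITGA2B, the platelet alpha chain, held 55 reads in wild-type and 37 in knockdown total RNA, with the summed platelet markers at a median of 0.0651 and 0.0250 CPM. ITGB7 held 27 and 16 reads, and ITGA9, a receptor for tenascin and VCAM1, 67 and 75.

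Of the 10 laminin chains tested 7 were higher and 2 lower, against 41.2% and 39.3% of all genes. Of the 7, LAMA4 was let in by the knockdown libraries, and LAMA2 and LAMA4 were not called without replicate 1. LAMB3, a beta chain of the laminin that anchors epithelia, rose without overlap. LAMB3 ran from 91.0 to 137 CPM (median 108) and from 256 to 423 CPM (median 311), a log2 difference of 1.53 ± 0.05 (adjusted p = 2.90e-22). The LAMB3 window above holds the AP-1 letters, which the other windows of LAMB3 do not. LAMA3, an alpha chain that pairs with it, was too low to test, with 56 reads over the wild-type and 126 over the knockdown libraries.

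The chains LAMA1, LAMB1 and LAMC1, which form the classical laminin of early basement membranes, rose together in total RNA. LAMA1 ran from 80.8 to 133 CPM (median 96.9) in wild-type and from 189.9 to 294 CPM (median 243) in knockdown cells (log2 difference 1.31 ± 0.03, adjusted p = 1.83e-28). LAMB1 ran from 81.0 to 127 CPM (median 95.5) and from 185 to 282 CPM (median 204), for a difference of 1.15 ± 0.03 (adjusted p = 3.63e-28). LAMC1 ran from 234 to 283 CPM (median 266) and from 438 to 503 CPM (median 464), for a difference of 0.82 ± 0.02 (adjusted p = 6.54e-26). The groups did not overlap for any of these 3 chains.

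The chains LAMA5 and LAMB2 of mature basement membranes did not follow. LAMA5 ran from 11.1 to 32.5 CPM (median 20.3) in wild-type and from 5.77 to 14.8 CPM (median 11.0) in knockdown cells and fell by 0.95 ± 0.09 (adjusted p = 5.50e-11), lower at all 12 times although the ranges overlap. LAMB2 fell by 0.09 ± 0.03 (adjusted p = 0.00449), with 53.1 to 106 CPM against 57.4 to 97.8 CPM, and without replicate 2 this was not called (-0.02, adjusted p = 0.494). LAMC3 did not pass the test (0.07 ± 0.04, adjusted p = 0.109). LAMA2, the muscle laminin chain, rose by 0.24 ± 0.05 (adjusted p = 0.000132) and LAMA4, a vascular one, differed by 0.38 ± 0.13. Without replicate 1 neither was called (adjusted p = 0.0935 and 0.265). LAMB4 held 17 reads over the wild-type and 64 over the knockdown libraries and was not tested.

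Footprints gave a second readout at the same times. Of the 26 members tested, 17 were higher in knockdown cells (36.6% of all genes) and 5 lower (37.8%), and 74.3% of all genes were called. Among the 23 members that passed in each treatment 16 were higher and 3 lower, against 36.8% and 37.5% of such genes. With the scaling of the deposited values in place of TMM, the share of higher calls among all genes went from 49.2% to 60.9%, and the median of all genes moved from -0.01 to 0.09 on the log2 scale, so small footprint differences depend on the scaling. Every knockdown library lay above every wild-type library for 10 of the 26 members (5.93% of all genes), among them ITGA2, ITGA3, ITGA5, ITGA6, ITGAX, LAMA1, LAMB1, LAMB3 and LAMC1. No member had every knockdown library below every wild-type one (5.3% of all genes). A called change of at least 2-fold upwards was seen in 7 of 26 (4.53% of all genes) and downwards in 2 (3.95%), ITGA11 and ITGB2, both let in by the wild-type libraries. Among the 23 members these counts were 6 (3.68%) and 0 (3.19%). Separation of all libraries upwards held for 9 of the 23 (5.93%). Both assays called the same direction for 15 members upwards (32.5% of all genes) and 4 downwards (31.6%), and no member was called in opposite directions (2.60%). The 15 include ITGAX, let in by the knockdown libraries in both assays. The 4 include ITGA11 and ITGB2, let in to footprints by the wild-type libraries. These counts were not made over genes passing in each treatment.

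ITGA2 footprints ran from 17.2 to 30.1 CPM (median 24.2) in wild-type and from 163 to 433 CPM (median 197) in knockdown cells, a log2 difference of 3.20 ± 0.05 (adjusted p = 5.49e-37). ITGAX footprints ran from 0 to 2.41 CPM (median 0.964) and from 12.9 to 24.8 CPM (median 16.4), a difference of 3.94 ± 0.17, given with no p since the knockdown libraries let it in. Both stood far apart between treatments in footprints. ITGAM, not tested in footprints, held 20 footprint reads in wild-type and 87 in knockdown cells. Further rises without overlap were those of LAMB3 (1.42 ± 0.06), ITGA5 (1.39 ± 0.04), LAMB1 (1.16 ± 0.03), ITGA6 (1.16 ± 0.04), ITGA3 (0.93 ± 0.07), LAMC1 (0.90 ± 0.03) and LAMA1 (0.85 ± 0.04). Falling footprints belonged to ITGB2 (-1.56 ± 0.18), ITGA11 (-1.24 ± 0.22), ITGB4 (-0.92 ± 0.14), LAMA5 (-0.85 ± 0.09) and ITGAE (-0.39 ± 0.09), all with overlap. The ITGA11 call was not made by edgeR's quasi-likelihood test.

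**Figure D2:**
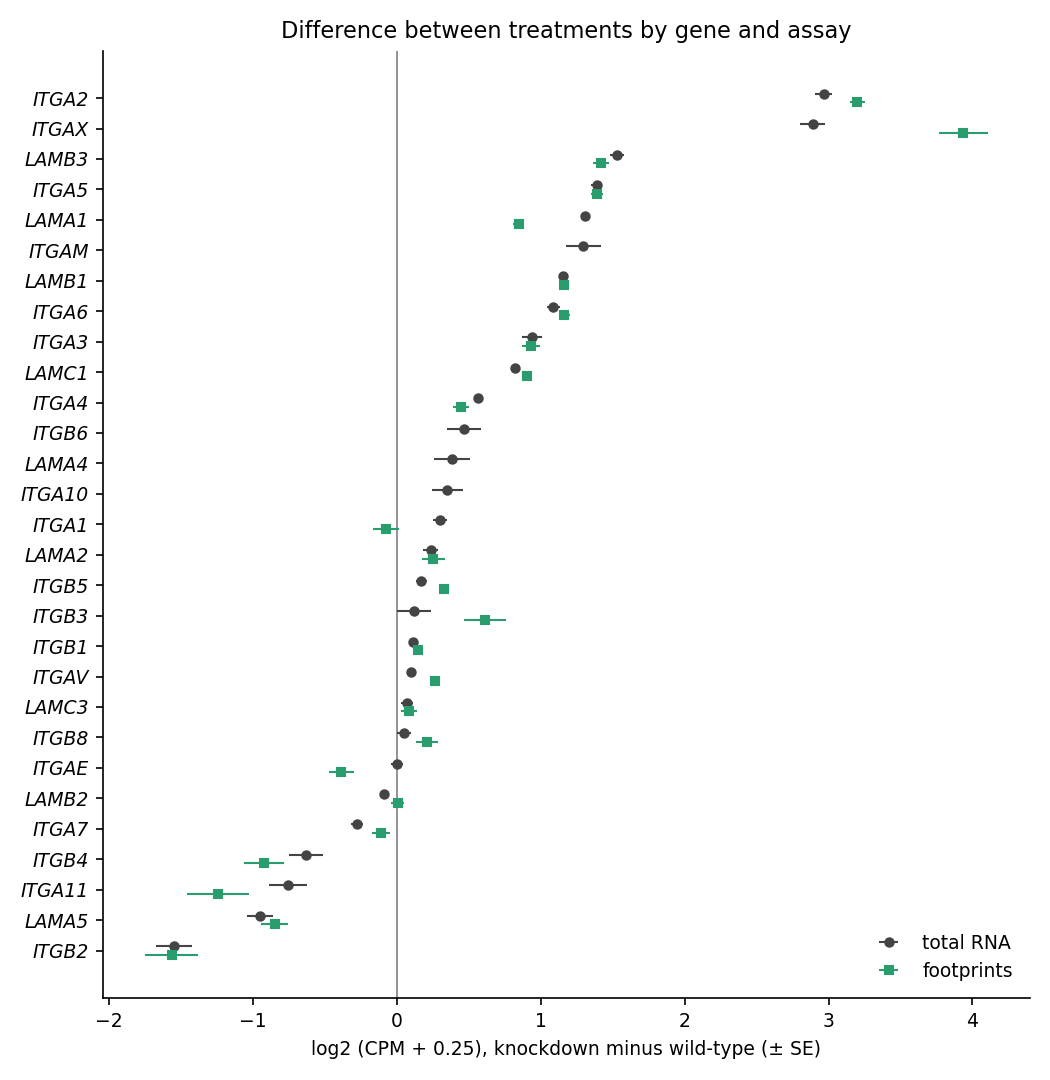
Difference between treatments (knockdown minus wild-type on the log2(CPM + 0.25) scale, mean over 12 times, bars ± SE) for members tested in total RNA (dark circles) and in footprints (green squares). ITGA2 and ITGAX stand apart at 2.96 and 2.89 in total RNA, ITGB2 is lowest at -1.55, and for ITGAX the footprint value lies to the right of the total RNA value, for LAMA1 to the left.

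Whether footprints moved more or less than RNA was tested in 1 model over all 96 libraries, as the difference in footprints minus that in total RNA, a change of translational efficiency. Total RNA and footprint libraries of the same time and number deviated together in 12 of 12 wild-type and 7 of 12 knockdown pairs (correlation over 0.1), whereas this model takes them as independent. Of 26 members 9 were called, against 29.5% of all genes. In a paired run footprints minus RNA were taken per treatment, time and replicate number, with that number as a block. The paired run called 11 members (36.5% of all genes), LAMB3 and LAMC1 in addition. Upwards the model over 96 libraries called 6 (12.4% of all genes), among them ITGAX, ITGB3, ITGA2, ITGAV and ITGB5. Downwards it called 3 (17.2%), LAMA1, ITGAE and ITGA1. ITGAX is counted here although the knockdown libraries let it in for both assays. With the scaling of the deposited values 16 members were called, against 39.2% of all genes. Of all calls 79.8% then pointed upwards rather than 41.9%, with the median of all genes moving from -0.01 to 0.09. The 9 members kept their direction and their call under that scaling.

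LAMA1 gave the smallest p of the 9 called. Its RNA mean went from 98.1 to 243 CPM and its footprint mean from 89.8 to 162 CPM, so that footprints rose less than RNA by 0.46 ± 0.05 on the log2 scale (adjusted p = 1.04e-11). The difference was negative at all 12 times, between -0.72 and -0.17, and was called under each alternative run, from -0.55 without replicate 2 to -0.36 with the deposited scaling. Its partner chains LAMB1 (0.01 ± 0.04, adjusted p = 0.837) and LAMC1 (0.08 ± 0.03, adjusted p = 0.0563) did not pass. LAMC1 was called upwards in the paired run with the replicate block (adjusted p = 0.00153) and with the deposited scaling (adjusted p = 8.87e-06). LAMB1 was called with the deposited scaling (0.11, adjusted p = 0.0112). The difference between the chains was not itself tested.

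ITGAX footprints rose more than its RNA by 1.05 ± 0.20, at 11 of 12 times. The knockdown libraries let ITGAX in for both assays, so this is given as a description with no p. Among the members only ITGAX, let in this way, was past 2-fold upwards (called so in 0.0753% of all genes), and 0 were past it downwards (0.268%). Given how ITGAX was let in, that share does not measure how unusual it is. The ITGAX value moves with the scale: the ratios of mean CPM, 15.9 in footprints and 11.45 in total RNA, differ by 1.39-fold (log2 0.47), and with a pseudocount of 1 it was 1.25. It rests on 109 wild-type footprint reads over 24 libraries. It was 0.67 in edgeR's quasi-likelihood test and 0.81 without replicate 2, where it was not called. ITGA2 had 0.23 ± 0.08 (adjusted p = 0.0244) and was not called without either replicate (adjusted p = 0.316 and 0.307) or without the 2 shallow libraries (adjusted p = 0.0543).

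ITGAV (0.16 ± 0.03, adjusted p = 0.000223), ITGB5 (0.16 ± 0.05, adjusted p = 0.00981) and ITGAE (-0.39 ± 0.10, adjusted p = 0.00121) lost their call without replicate 2 (adjusted p = 0.0518, 0.131 and 0.0566). ITGA1 (-0.38 ± 0.11, adjusted p = 0.00443) lost it without replicate 1 (adjusted p = 0.0943). ITGB3 (0.49 ± 0.19, adjusted p = 0.0492) lay at the threshold and lost its call under several settings, with adjusted p between 0.0549 and 0.386 there.

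**Figure D3:**
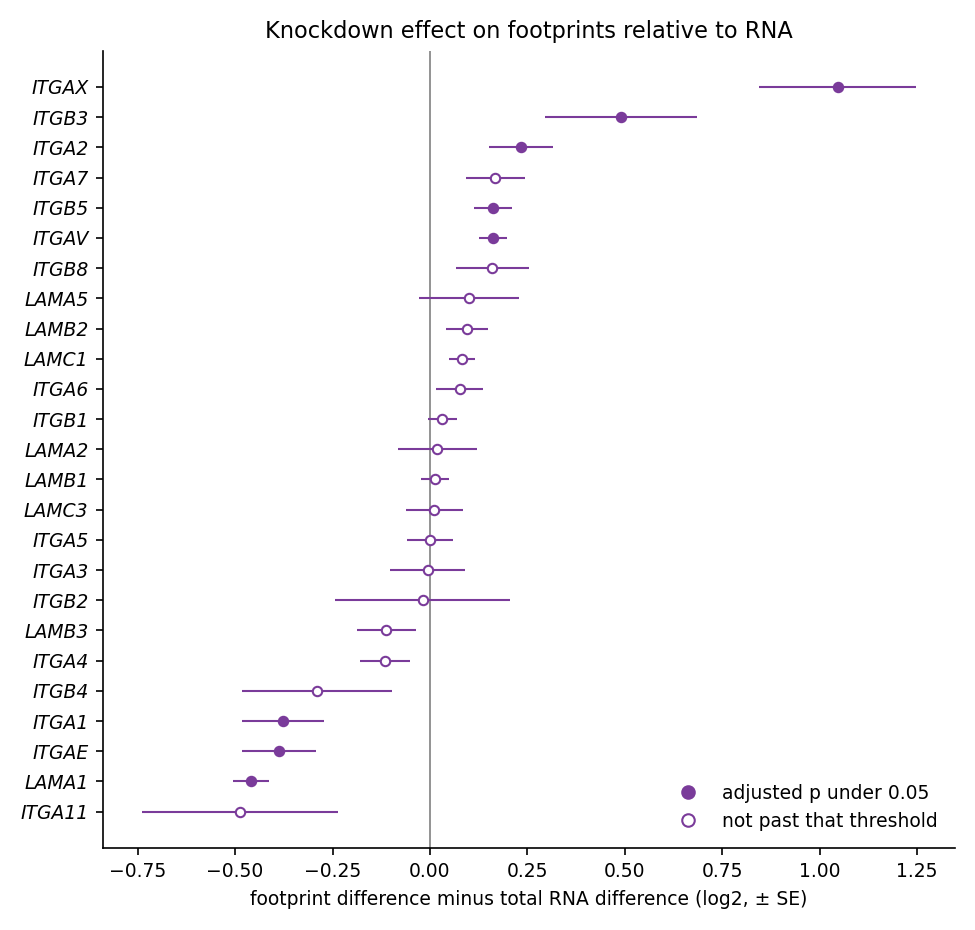
Footprint difference minus total RNA difference between treatments (log2, bars ± SE) for members tested in both assays. Filled circles had an adjusted p under 0.05, with ITGAX at 1.05, ITGB3 at 0.49 and LAMA1 at -0.46 among them. ITGAX was let in by the knockdown libraries in both assays.

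Within a treatment the ratio of footprints to total RNA differed widely between members. In wild-type cells LAMA5 (log2 footprints minus RNA of 1.74), ITGB4 (1.52), ITGA7 (1.08) and LAMC3 (1.07) stood at percentiles 96.5, 95.1, 90.1 and 90.1 among 11947 genes. ITGB8 (-1.27) and ITGAE (-0.93) stood at percentiles 14.7 and 22.4. ITGAX went from percentile 86.3 in wild-type to 97.8 in knockdown cells and LAMA1 from 48.9 to 32.5. Footprints come mainly from coding sequence, whereas total RNA covers whole transcripts. Over which part of a gene the reads were counted is not given. The ratio may therefore also move with the untranslated share of a transcript.

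The time courses were read with a 24 h cosine fitted to the 24 libraries of each treatment and assay, whose amplitude is the height of the fitted peak over the mean on the log2 scale. In wild-type total RNA 11 of the 26 members tested were called, against 21.6% of all genes. The numbers pair the wild-type total RNA libraries, and with the replicate number as a block 17 members (36.8% of all genes) were called. The fitted peaks of ITGA11, ITGB3, ITGB8, LAMA5, LAMB1 and LAMB2 lay between CT 16.1 and CT 17.7. Those of ITGA4 and ITGAE lay at CT 4.47 and CT 5.52, and those of ITGA2 and ITGB1 at CT 18.5 and CT 19.0. The series cover 1 day, so a daily cycle and a steady trend look alike, and with a linear drift in the model 0 of the 11 were called by limma, against 24 of the 13654 genes tested (0.176%). At an unadjusted p under 0.05 that fit held 2 of the 26 members and 5.54% of all genes.

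ITGB8 rose through the day in both wild-type series, from 24.6 and 28.4 CPM at CT00 through 40.8 and 51.0 CPM at CT12 to 71.9 and 69.4 CPM at CT22. Its amplitude was 0.57 ± 0.09 with a peak at CT 16.7 (adjusted p = 0.000522). Replicate 1 was highest at the last collection, after the fitted peak, and replicate 2 at CT18 (69.8 CPM). In knockdown cells it went from 35.7 and 37.6 CPM at CT00 to 58.1 and 50.0 CPM at CT22 (amplitude 0.38 ± 0.06, adjusted p = 6.16e-05). ITGA11 rose from 0.464 and 0.339 CPM at CT00 to 3.09 and 1.18 CPM at CT22 in wild-type cells (amplitude 0.72 ± 0.14, adjusted p = 0.00300).

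The laminins LAMA5 and LAMB2, the pair that fell or stayed level with the knockdown, also climbed. LAMA5 went from 14.8 and 11.1 CPM at CT00 to 31.9 and 19.9 CPM at CT22 in wild-type cells, with replicate 1 above replicate 2 at every time (amplitude 0.40 ± 0.11, adjusted p = 0.0261). LAMB2 went from 53.1 and 64.6 CPM to 102.4 and 102.0 CPM (amplitude 0.34 ± 0.04, adjusted p = 9.78e-05). LAMB1 rose from 94.4 and 88.3 CPM to 127 and 98.8 CPM (amplitude 0.16 ± 0.03, adjusted p = 0.00305).

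**Figure D4:**
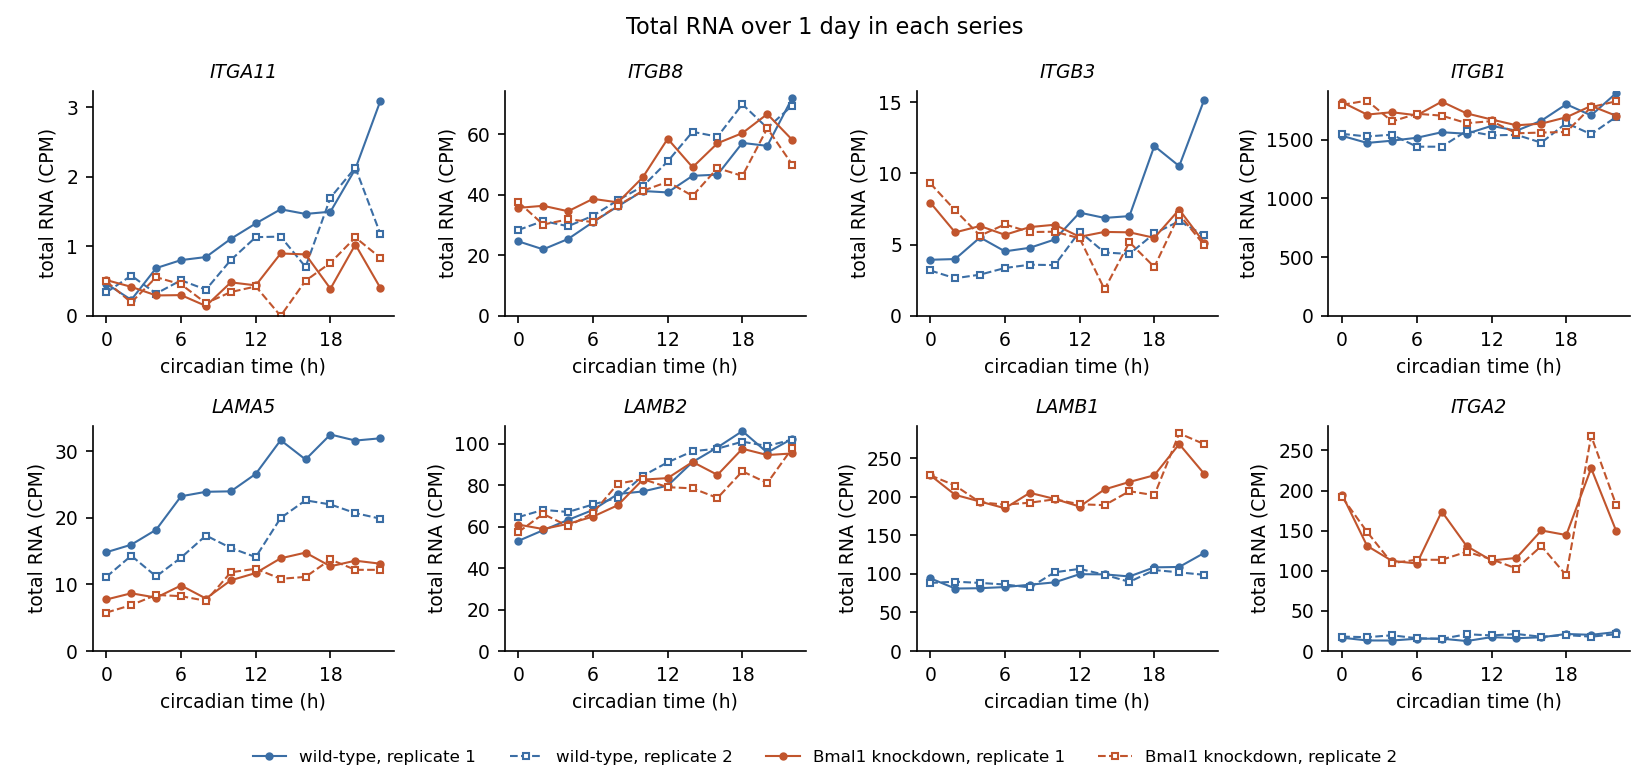
Total RNA (CPM) of 8 members against circadian time, with wild-type cells in blue, knockdown cells in orange, replicate 1 as solid and replicate 2 as dashed lines. In wild-type cells ITGA11, ITGB8, LAMA5 and LAMB2 climb across the day, while ITGB3 climbs to 15.1 CPM in replicate 1 and to 5.66 CPM in replicate 2 at CT22.

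In wild-type footprints 8 of 25 members were called, against 6.45% of all genes, or 12 with the replicate number as a block (11.5%). With a linear drift limma called 0, and 2 of the 25 had an unadjusted p under 0.05 (4.01% of all genes). ITGA11, ITGB8, LAMA5, LAMB1, LAMB2, ITGB4 and ITGB5 had fitted peaks between CT 16.3 and CT 17.4. LAMA5 footprints rose from 30.0 and 40.1 CPM at CT00 to 131 and 96.9 CPM at CT22 (amplitude 0.59 ± 0.14, adjusted p = 0.0279). Leaving out replicate 2 left 2 of the 8 calls, ITGB8 and LAMB1, and leaving out replicate 1 left 5. Over all genes the share called likewise went from 6.45% to 1.12% and 3.92% in these runs.

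In knockdown cells 16 of 30 members were called in total RNA (31.4% of all genes) and 10 of 24 in footprints (16.8%). LAMA5, LAMB2 and ITGB8 had fitted peaks between CT 15.8 and CT 17.2 in both assays there. With a linear drift LAMA1 and LAMB1 remained called in total RNA (2 of 30, against 4.12% of all genes) and ITGA3 in footprints (1 of 24, against 2.20%). LAMB1 went from 228.0 and 227.9 CPM at CT00 to 187 and 190.3 CPM at CT12 and 268 and 282 CPM at CT20, a dip seen in both series. ITGA2 had its highest values at CT20 (228 and 268 CPM) and CT00 (195 and 192 CPM) and 113 and 114 CPM at CT12. Without replicate 1, 5 of the 16 total RNA calls stood, and without replicate 2, 8. Over all genes the share called in total RNA likewise went from 31.4% to 8.34% and 14.1% in these runs.

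A change of the 24 h pattern with the knockdown was tested directly. In total RNA it was called for ITGB1 and ITGB3, 2 of 30 members against 10.0% of all genes, and in footprints for ITGA5, 1 of 26 against 3.48%. ITGB3 rose in wild-type replicate 1 from 3.94 CPM at CT00 to 15.1 CPM at CT22 and in replicate 2 from 3.19 to 5.66 CPM. In knockdown cells it fell from 7.96 and 9.31 CPM to 5.14 and 4.97 CPM. ITGB1 rose from 1531 and 1548 CPM at CT00 to 1894 and 1692 CPM at CT22 in wild-type cells, while the knockdown series were at 1817 and 1795 CPM and at 1702 and 1825 CPM. With a linear drift per treatment limma called 0 members in either assay, and 3 and 4 of them had an unadjusted p under 0.05 (9.68% and 8.03% of all genes).

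The other genes of the pathway were taken as 6 lists in total RNA, to be read against the 41.2% of all genes called higher and the 39.3% called lower. Of 24 tested non-laminin ligands of integrins, 13 were higher and 8 lower in knockdown cells (median log2 difference 0.24, against 0.01 over all genes). FN1, fibronectin, the ligand of ITGA5, rose from a median of 684 to 1590.0 CPM (1.21 ± 0.05, adjusted p = 6.82e-20). TNC, tenascin, rose by 2.08 ± 0.07 (adjusted p = 4.61e-21). EDIL3, an RGD protein that binds ITGAV receptors, fell by 1.66 ± 0.03 (adjusted p = 1.73e-31), and COL3A1, a fibrillar collagen, by 1.65 ± 0.10 (adjusted p = 2.68e-16). Of 18 basement membrane partners of laminin 7 were higher and 7 lower (median -0.11). PAPLN, papilin, rose by 1.13 ± 0.04 (adjusted p = 2.41e-21), the heparan sulfate proteoglycan HSPG2 rose by 1.12 ± 0.04 (adjusted p = 1.74e-22) and the collagen chain COL4A4 fell by 1.53 ± 0.06 (adjusted p = 2.93e-21).

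Of 30 focal adhesion adaptors and kinases 16 were higher and 11 lower (median 0.14). The talin TLN1, which links beta chains to actin, differed by 0.08 ± 0.02 (adjusted p = 0.000157), whereas TLN2 rose by 1.08 ± 0.03 (adjusted p = 1.09e-25). The actin crosslinker FLNC rose by 1.63 ± 0.04 (adjusted p = 3.34e-24) and the tensin TNS3 fell by 1.52 ± 0.03 (adjusted p = 9.72e-31). Of 10 tetraspanins and other integrin-associated membrane proteins 5 were higher and 4 lower (median 0.08), with CD82 up by 1.83 ± 0.09 (adjusted p = 1.50e-16) CD9 down by 0.76 ± 0.03 (adjusted p = 5.52e-20) and TSPAN4 down by 0.47 ± 0.03 (adjusted p = 4.16e-15).

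Of 15 other laminin receptors 6 were higher and 6 lower (median 0.03). CD44 rose by 1.52 ± 0.04 (adjusted p = 2.38e-23), the syndecan SDC2 fell by 1.42 ± 0.03 (adjusted p = 1.46e-27) and BCAM, which binds LAMA5, fell by 0.87 ± 0.08 (adjusted p = 3.59e-11). Of 9 integrin inactivators and trafficking factors 3 were higher and 4 lower (median -0.01). RASA1 fell by 0.64 ± 0.03 (adjusted p = 2.09e-21), CIB1 rose by 0.39 ± 0.03 (adjusted p = 3.51e-14) and DOK1 fell by 0.28 ± 0.03 (adjusted p = 1.23e-11).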

How the data were processed

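Total RNA and ribosome footprints were measured in 96 libraries. Per the submitters' processing notes the tools were STAR 2.3.0e, HTSeq 0.5.4p1 and DESeq2 (version not given), with the builds GRCh37 and hg19. The signal in the 8 deposited tables is normalised by 1 factor per library, as its values show; how the authors set that factor is not given in the sources used here. Column names give the time only, so treatment, assay and replicate were read from the table each column stands in. Each library's values were whole multiples of 1 read, 100% of them within 0.001 read, and whole reads were recovered from these steps.

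Recovered reads were scaled by TMM (edgeR 4.0.16) within each assay and tested on log2(CPM + 0.25) with limma 3.58.1 in R 4.3.3 (trend, robust), after filterByExpr with a minimum count of 10. P-values were adjusted by Benjamini-Hochberg over all genes tested at 0.05, treating libraries as independent. The knockdown effect was averaged over 12 times, translational efficiency was an interaction of assay and treatment, and rhythms were 24 h cosines. A log2 difference, and a 2-fold limit, is on the log2(CPM + 0.25) scale, and a stated ratio is of mean CPM. Fits of the knockdown effect in each assay, translational efficiency, both wild-type rhythms and the rhythm change in total RNA were tested on simulated data. Fits of the knockdown rhythms and of the rhythm change in footprints were not, and the simulated libraries were independent. All members could be named. From each other list the rule named up to 3 genes with the largest absolute knockdown effect in total RNA among those called at a mean log2 CPM of at least 1, plus FN1, TLN1 and ARNTL. Floors of 3 reads and depth cover counting error only. Alternatives were the deposited scaling, a pseudocount of 1, no filter, edgeR's quasi-likelihood test, leaving out each replicate or the 2 shallow libraries, a replicate block, means of series and a linear drift. Replicates differed by more than sampling noise in each of the 48 pairs. For pairing, differences between replicates 1 and 2 were correlated between times. They correlated above 0.1 in 66 of 66 pairs of wild-type total RNA times (0.292 to 0.500), so the numbers pair those libraries. In wild-type footprints they did so in 60 of 66 pairs (median 0.198), so these too are partly paired. Knockdown times did so in 3 of 66 pairs in total RNA and 4 of 66 in footprints. Same-time pairs of wild-type with knockdown did so in 1 and 2 of 12, so the numbers do not pair the treatments. Counts over genes passing the filter in each treatment were added after seeing the data. Members and lists were chosen with earlier results of these data known. The results of 1 member and 1 marker are not reported here.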

Additional observations from a re-analysis of the deposited data

Results flagged for a closer look

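For 3 members the 24 h pattern differed between wild-type and knockdown cells by the test of that difference. These were 2 of 30 in total RNA, against 10% of all genes, and 1 of 26 in footprints, against 3.48%. The members were thus not called more often than genes at large in total RNA, and about as often in footprints. The difference in the fitted wave, on the log2 scale, was 0.117 for ITGB1 (adjusted p = 0.0125) and 0.734 for ITGB3 (adjusted p = 0.0123) in total RNA, and 0.214 for ITGA5 in footprints (adjusted p = 0.0387). In limma's fit with a linear drift per treatment the values were 0.06 for ITGB1 (adjusted p = 0.812), 0.15 for ITGB3 (adjusted p = 0.943) and 0.10 for ITGA5 (adjusted p = 0.774). The ITGB1 call was lost without replicate 1 (adjusted p = 0.194) and the ITGB3 call without replicate 2 (adjusted p = 0.0899). The ITGA5 call was lost without replicate 1 (adjusted p = 0.114), without replicate 2 (adjusted p = 0.236) and without the filter on low counts (adjusted p = 0.0765).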

How the results depend on the processing

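Differences that changed sign under an alternative are given on the log2 scale, and of these only ITGB8 in footprints was called in the main run. Some were called under an alternative, among them LAMC3 in both assays without replicate 1 and ITGB8 in both without replicate 2. In total RNA ITGAE had -0.00075 without replicate 1 and 0.0028 without replicate 2, -0.0026 with the deposited scaling, and ITGB8 had -0.16 without replicate 1 and 0.26 without replicate 2. ITGB3 had 0.35 without replicate 1 and -0.11 without replicate 2, and LAMC3 had 0.22 without replicate 1 and -0.078 without replicate 2. In footprints ITGA1 had 0.019 with the deposited scaling, and ITGB8 had -0.0057 without replicate 1 and 0.43 without replicate 2. LAMB2 had -0.031 without replicate 1 and 0.046 without replicate 2, and LAMC3 had 0.21 without replicate 1 and -0.045 without replicate 2. For footprints relative to RNA ITGA3 had 0.021 without replicate 1 and -0.032 without replicate 2, 0.096 with the deposited scaling, and ITGB2 had 0.040 without replicate 1 and -0.078 without replicate 2, 0.068 with the deposited scaling, 0.026 with a pseudocount of 1. ITGA5 had -0.0088 without replicate 1 and 0.0091 without replicate 2, -0.00081 in edgeR, -0.011 without the 2 shallow libraries, and LAMA2 had -0.077 without replicate 1 and 0.11 without replicate 2. LAMC3 had -0.011 without replicate 1 and 0.033 without replicate 2, and LAMB1 had -0.00090 without the 2 shallow libraries. The cause was not tested.

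For footprints relative to RNA series means gave 1903 genes called, whereas the deposited scaling gave 4689 genes and 16 members. Leaving out a replicate gave 1902 genes (15.9%) and 5 members without replicate 1, or 2609 genes (21.8%) and 3 members without replicate 2. For rhythms it gave 1575 to 2931 genes and 8 to 9 members in wild-type total RNA, 133 to 464 genes and 2 to 5 members in wild-type footprints, 1145 to 1939 genes and 5 to 9 members in knockdown total RNA, and 464 to 805 genes and 3 to 5 members in knockdown footprints. For the change of the rhythm it gave 383 to 907 genes and 1 to 2 members in total RNA and 86 to 131 genes and 0 members in footprints, where no filter also gave 0 members. A linear drift left 24, 7, 566 and 256 genes and 0, 0, 2 and 1 members in these 4 rhythms, and 151 and 68 genes with 0 members for the changes of the rhythm. With the replicate block, the paired wild-type total RNA rhythm gave 5018 genes and 17 members and wild-type footprints 1362 genes and 12 members, adding ITGA4, ITGAV, ITGB1 and ITGB3. For footprints relative to RNA the paired run with the block gave 4364 genes and 11 members, adding LAMB3 and LAMC1. The block changed no member's call in the knockdown effect of either assay. Series means kept 19 of 26 member calls in total RNA (57.4% of all genes called) and 18 of 22 in footprints (58%). They lost ITGA10, ITGAV, ITGB1, ITGB4, ITGB5, LAMA2 and LAMB2 in total RNA and ITGB1, ITGB3, ITGB8 and LAMA2 in footprints.

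In footprints 11 of 37 members were too low to test, of which 7 were also too low in total RNA. Genes passing the filter in each treatment were counted after seeing the data. Among these, 22 of 26 members were called in total RNA (80.6% of such genes) and 19 of 23 in footprints (74.3%).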
